A study of Mus musculus with 11 samples.

Results

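Open chromatin was described at 6 mouse genes that encode cofactors of the Hox proteins: Meis1, Meis2, Meis3, Pknox1, Pbx2 and Pbx3. The members were all ATAC-seq peaks whose assigned gene, the gene with the nearest transcript start site in the deposited annotation, carries the Entrez identifier of 1 of these genes. This rule uses position and no measured level, and it found 48 of 94410 peaks. Meis1 held 22 of them, Meis3 8, Meis2 7, Pbx3 6, Pknox1 3 and Pbx2 2.

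ATAC-seq reads out accessible DNA through the insertions of a transposase, and it was run on haematopoietic stem cells (HSCs) sorted from mouse bone marrow at steady state. All 11 libraries came from mice of the genotype Gfplc3/Gfplc3, in which the autophagosome protein LC3 is tagged with GFP. The groups were 5 libraries of young HSCs, labelled unfractionated, 3 of old HSCs labelled AThi (GFPlo) and 3 of old HSCs labelled ATlo (GFPhi), each AThi library sharing a number with an ATlo library. Labels state neither sex, nor age as a number, nor how many mice stand behind a library. Age and the GFP sort change together between the young and either old group and cannot be told apart.

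The deposited tables hold the authors' comparisons (change on the log2 scale, standard error (SE), p) and 1 mean normalised count per peak over all libraries, called the level here, and no values per library. Group levels are therefore those implied by the level and the authors' changes, approximate and without an SD, and p-values reflect only how these libraries vary, which may be technical. In bulk HSCs, fewer cells with an open site and less opening per cell cannot be told apart. Of 8 fixed HSC markers, all but Ly6a had a peak within 1 kb of a start site, with a median level of 102 for the strongest such peak of a gene, whereas 0 of 3 T-cell, 1 of 5 myeloid, 2 of 5 B-cell, 2 of 3 erythroid and 4 of 5 endothelial or stromal markers had one. Levels at those promoters were 26.1 for the myeloid marker, 13.7 to 56 (median 34.8) for B-cell and 74.7 to 227 (median 151) for erythroid markers. Endothelial or stromal markers had a median of 86.3, and HSC markers ran from 28.6 to 414. The HSC median of 102 was thus below that of erythroid markers and not far above that of endothelial or stromal markers. It was also below the median of 122 over all promoter peaks within 1 kb. Cd3e, Pax5, Mpo, Elane and Cdh5 were among the markers with no peak within 1 kb. Among these marker promoters, 1 of 4 endothelial or stromal peaks was called higher in each old group. Of all promoter peaks within 1 kb, 7.33% were called higher in AThi and 5.75% in ATlo HSCs. In old ATlo HSCs 2 of 11 HSC marker peaks were called lower, against 6.87% of all promoter peaks within 1 kb. The part of these marker peaks in the results below was not tested.

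MEIS, PKNOX and PBX proteins belong to the TALE class of homeodomain factors, named for a loop extension in the homeodomain. PBX binds DNA next to Hox proteins, and MEIS or PKNOX proteins join PBX through a separate surface, which stabilises the complex and helps to bring PBX into the nucleus. In blood, Meis1 is needed to maintain HSCs and, with Hoxa9, drives leukaemia when overexpressed; Pbx3 is a partner of both in leukaemias with MLL fusions.

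Upstream sequences are shown for the 3 Meis genes because the results describe their start sites: the peak over the Meis1 start site was called lower in old HSCs on the authors' scale but not on the other scales tried, the peak over the Meis3 start site was not called, and no listed peak lay over the Meis2 start site. The peaks were not tested against each other. Each is the 250 bases before the start site in RefSeq (GRCm38.p6), read 5′ to 3′ along the gene, with matches to the ETS core CCGGAA on either strand in capitals (TTCCGG as printed).
Meis1 (chr11:19018970-19019219, minus strand): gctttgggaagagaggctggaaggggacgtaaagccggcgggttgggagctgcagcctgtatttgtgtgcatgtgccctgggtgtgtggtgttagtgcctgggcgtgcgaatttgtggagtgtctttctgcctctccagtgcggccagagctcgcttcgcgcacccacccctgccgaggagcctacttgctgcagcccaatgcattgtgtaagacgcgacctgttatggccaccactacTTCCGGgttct
Meis3 (chr7:16175145-16175394, plus strand): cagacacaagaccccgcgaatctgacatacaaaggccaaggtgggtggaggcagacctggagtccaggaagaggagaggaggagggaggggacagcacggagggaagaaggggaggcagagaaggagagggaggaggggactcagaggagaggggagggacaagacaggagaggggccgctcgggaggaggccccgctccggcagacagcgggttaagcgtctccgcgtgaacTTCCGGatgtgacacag
Meis2 (chr2:116064620-116064869, minus strand): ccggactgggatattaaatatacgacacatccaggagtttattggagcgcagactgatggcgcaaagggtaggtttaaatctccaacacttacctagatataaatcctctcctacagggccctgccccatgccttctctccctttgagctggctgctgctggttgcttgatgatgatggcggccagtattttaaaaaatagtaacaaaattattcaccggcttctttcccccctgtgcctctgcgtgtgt

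The RefSeq promoter table held 4 of the 6 members, Pbx2 being the fourth. Measured to the far end of the gene, the start site was the same in RefSeq and in the deposited annotation for Meis1, Meis2 and Pbx2, and 2 bp apart for Meis3. The motifs were searched on both strands: CCGGAA for ETS factors, then TGACAG, the core bound by MEIS and PKNOX, and then TGATNNAT, a site for PBX with a Hox protein. CCGGAA occurred once upstream of Meis1, as TTCCGG on the printed strand with its first base 11 bp before the start site, and once upstream of Meis3, 17 bp before it. None of the 4 windows held TGACAG, and none held TGATNNAT, and those of Meis2 and Pbx2 held no match at all. Over all 32851 windows of this length, 12.0% held CCGGAA, 15.9% held TGACAG and 7.7% held TGATNNAT. The G and C content was 59.6% for Meis1, 63.6% for Meis3, 47.6% for Meis2 and 77.6% for Pbx2, against a median of 52.4% over all windows.

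On the authors' scale, the peak over the Meis1 start site and 1 intron 8 peak of Meis1 were called lower in both old groups. The Meis1 promoter peaks 659 bp and 1314 bp upstream of that site were not called on this scale. Meis3 had 2 peaks called higher in both old groups. At Meis2 a different single peak was called higher in each old group, and at Pbx3 1 peak in AThi HSCs only. No peak at Pbx2 or Pknox1 passed. Called means an adjusted p under 0.05 from DESeq2 as the authors' deposited tables give it, which 92579 of the 94410 peaks have. In old AThi HSCs 4 member peaks were called higher (8.33% of 48, against 7.57% of those 92579) and 2 lower (4.17%, against 2.74%). In old ATlo HSCs 3 were called higher (6.25%, against 6.88%) and 2 lower (4.17%, against 2.54%). The shares called higher were near those of all peaks, and the shares called lower rest on 2 peaks each. With the median of strong promoters (level of at least 356) set to 0, the members called higher were 16.7% in AThi and 18.8% in ATlo HSCs, against 13.3% and 16.9% of all peaks, and 0 were called lower, against 0.838% and 0.316%. On the authors' scale, the median log2 change of the members was 0.10 in AThi and 0.05 in ATlo HSCs, against -0.04 and -0.03 over all peaks. Both comparisons use the same 5 young libraries, so their values are given side by side.

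By kind, 24 member peaks (50.0%) lay in introns, against 33.6% of all peaks, 10 were distal intergenic (20.8%, against 35.7%) and 8 lay within 1 kb of a start site (16.7%, against 19.2%). Per 100 bp of peak, the level of the peak over the start site was 29.6 at Meis1, 21.1 at Pknox1, 17.3 at Pbx2, 14.9 at Pbx3 and 7.52 at Meis3. With no values per library, neighbours in this order could not be tested against each other. All coordinates of peaks are taken as mm39.

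Meis1, on chromosome 11, had more peaks than most genes: 243 of 20810 genes (1.17%) had 22 or more, and the median gene had 3. Of its 22 peaks 12 lay in introns, 7 were distal intergenic and 3 lay in the promoter region. Levels ran from 7.81 to 384 with a median of 61.3, against a median of 27.5 over all peaks.

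The peak over the Meis1 start site (chr11:18968398-18969237) had a group level of 289 in young, 217 in old AThi and 213 in old ATlo HSCs. Both old groups lay below young and close to each other. In the authors' deposited tables it fell by 0.41 on the log2 scale in AThi HSCs (SE 0.15, adjusted p = 0.0467) and by 0.44 in ATlo HSCs (SE 0.14, adjusted p = 0.0272). The peak reached 268 bp upstream of the start site, a span longer than the printed window, though the window comes from another build. A second peak, 93.5 kb into the gene in intron 8 of 12 (chr11:18874526-18875453), had group levels of 250.2 in young, 175 in AThi and 176 in ATlo HSCs. It fell by 0.52 in AThi (SE 0.15, adjusted p = 0.00724) and by 0.50 in ATlo HSCs (SE 0.14, adjusted p = 0.00856) per the authors' deposited tables. A small neighbour in the same intron, 93.1 kb from the start site with a level of 16.4, had log2 changes of 0.20 (SE 0.40) in AThi HSCs and -0.00 (SE 0.40) in ATlo HSCs per the authors' deposited tables and did not pass.

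Other strong peaks of Meis1 did not pass in either old group. The strongest, a distal intergenic peak just beyond the far end of the gene (chr11:18826472-18828355, level 384), had group levels of 428 in young, 353 in AThi and 340.0 in ATlo HSCs. Its log2 changes per the authors' deposited tables were -0.28 (SE 0.14, adjusted p = 0.208) and -0.33 (SE 0.14, adjusted p = 0.109). An intron 7 peak 48.3 kb from the start site (level 309.7) had group levels of 318, 299.9 and 305 in young, AThi and ATlo HSCs, with log2 changes of -0.09 (SE 0.13) and -0.06 (SE 0.13) per the authors' deposited tables. A peak 1314 bp upstream of the start site, in the outer promoter (chr11:18970283-18971171), had group levels of 209 in young, 246 in AThi and 199 in ATlo HSCs. Its log2 changes were 0.24 (SE 0.14, adjusted p = 0.305) and -0.07 (SE 0.14, adjusted p = 0.832) per the authors' deposited tables.

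**Figure D1:**
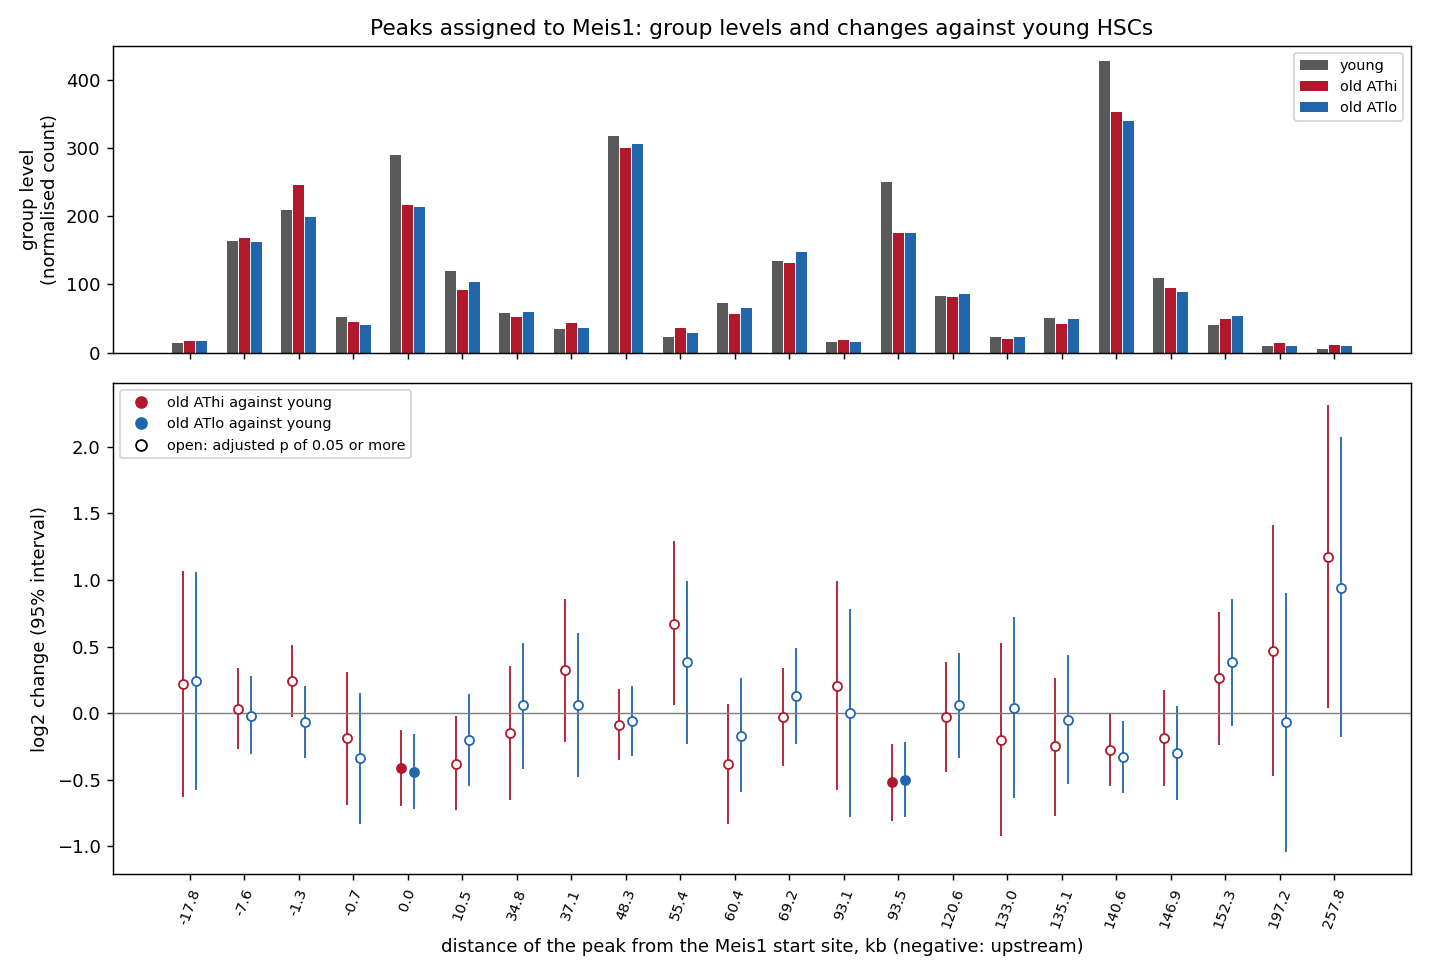
The 22 peaks assigned to Meis1, ordered by distance from the start site in kb (negative is upstream). Upper bars are the group levels (normalised counts, approximate, no error available) of young, old AThi and old ATlo HSCs; lower points are log2 changes against young with 95% intervals, filled where called. Filled points stand at the start site and at 93.5 kb, where both old groups lie below young.

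The 2 called peaks belong to the 8 Meis1 peaks with a level of at least 100, of which 6 had a log2 change below 0 in AThi and 7 in ATlo HSCs on the authors' scale. Strong peaks tended to lie lower across the whole series: 34.7% of the 16380 peaks at this level were above 0 in AThi and 28.6% in ATlo HSCs, and 6.04% and 8.96% were called lower. Peaks of like level to both called Meis1 peaks had a median log2 change of -0.12 in AThi and -0.18 in ATlo HSCs. Taken relative to that median, the start-site peak had changes of -0.29 (adjusted p = 0.226) and -0.26 (adjusted p = 0.317), and the intron 8 peak had -0.40 (adjusted p = 0.0627) and -0.32 (adjusted p = 0.171). Neither peak was called once the change of equally strong peaks was removed. The same held with the median of 1811 strong promoters, -0.22 in AThi and -0.31 in ATlo HSCs, set to 0: the start-site peak was then at -0.19 (adjusted p = 0.468) and -0.13 (adjusted p = 0.623), and the intron 8 peak at -0.30 (adjusted p = 0.185) and -0.19 (adjusted p = 0.413). On that scale the peak 1314 bp upstream was called higher in AThi HSCs. So was a weaker intron 7 peak 55.4 kb from the start site (level 27.6). In ATlo HSCs a distal intergenic peak 152.3 kb from the start site (level 46.5) was called higher on the same scale. Relative to peaks of like level, no Meis1 peak was called higher in either old group. On the authors' scale, 7 of the 14 weaker Meis1 peaks were above and 7 below 0 in AThi HSCs, and none passed.

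**Figure D2:**
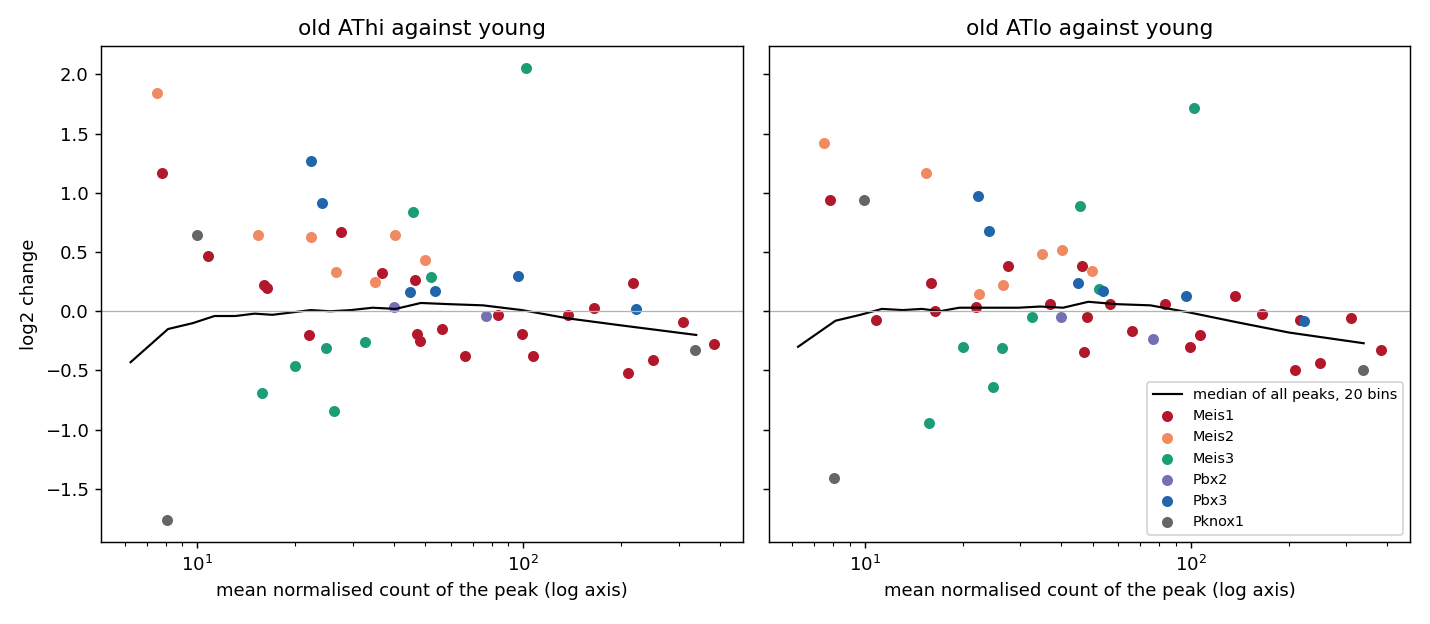
Log2 change against young HSCs (vertical axis) and mean normalised count (horizontal log axis) of the 48 member peaks, coloured by gene, for old AThi (left) and old ATlo HSCs (right). The black line is the median of all 94410 peaks in 20 bins of level; it lies below 0 at both ends, at -0.43 in AThi and -0.30 in ATlo HSCs in the weakest bin and at -0.20 and -0.27 in the strongest, and the called Meis1 peaks lie toward the strong end, while the highest point at a level of 102 is the 3′ UTR peak assigned to Meis3.

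Meis2, on chromosome 2, is a MEIS gene best known from the developing heart, brain and limb. No listed peak lay over its start site: the nearest downstream lay 2792 bp into the gene and the nearest upstream, 2207 bp away, was assigned to G630016G05Rik. All 7 Meis2 peaks had a log2 change above 0 in both old groups, with a median of 0.63 in AThi and 0.48 in ATlo HSCs, where 46.3% and 47.0% of all peaks were above 0. These peaks share a locus and are not independent. Levels were modest, from 7.51 to 49.9.

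An intron 8 peak of Meis2 (chr2:115799681-115799945) had group levels of 3.48 in young, 12.4 in AThi and 9.31 in ATlo HSCs. It rose 3.57-fold in AThi HSCs per the authors' deposited table (a log2 change of 1.84, SE 0.62, adjusted p = 0.0328), and had a change of 1.42 in ATlo HSCs (SE 0.62, adjusted p = 0.139). An intron 9 peak (chr2:115745519-115745981) had group levels of 10.3, 16.1 and 23.2 in young, AThi and ATlo HSCs. It rose 2.25-fold in ATlo HSCs per the authors' deposited table (a log2 change of 1.17, SE 0.41, adjusted p = 0.0493), and had a change of 0.64 in AThi HSCs (SE 0.45, adjusted p = 0.419). Adjusted over all 94410 peaks, the ATlo value missed the threshold (adjusted p = 0.0502). Both peaks were weak, at percentiles 5.6 and 28.6 of level among all peaks, and neither differed between the old groups past the test. The peak nearest to the start site had changes of 0.25 (SE 0.30) in AThi and 0.48 (SE 0.28) in ATlo HSCs per the authors' deposited tables and did not pass.

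Meis3, on chromosome 7, is a MEIS gene known from hindbrain patterning, and it carried the change with the smallest p of all members. That peak (chr7:15892709-15893192) lies 16.1 kb upstream of the Meis3 start site, is annotated as 3′ UTR, and falls inside Slc8a2, a sodium-calcium exchanger gene spanning 15863751 to 15894436. Its group level was 41 in young, 170.1 in AThi and 135 in ATlo HSCs. Both old groups were far above young. It rose 4.15-fold in AThi HSCs (a log2 change of 2.05, SE 0.21, adjusted p = 2.79e-19) and 3.3-fold in ATlo HSCs (a log2 change of 1.72, SE 0.21, adjusted p = 2.42e-13) per the authors' deposited tables. By p it ranked 42 among all peaks in AThi and 99 in ATlo HSCs. Of the 1680 peaks annotated as 3′ UTR, 8.1% were called higher in AThi and 7.2% in ATlo HSCs, and 11 and 17 had a larger log2 change than this peak.

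Several peaks nearby did not pass. An intron 7 peak of Slc8a2 that is also assigned to Meis3 had log2 changes of -0.46 (SE 0.37) and -0.30 (SE 0.35) in AThi and ATlo HSCs, per the authors' deposited tables. The Slc8a2 promoter had 0.11 (SE 0.18) and 0.23 (SE 0.18) per the authors' deposited tables. At the peak over the Meis3 start site (chr7:15908868-15909561) group levels were 47.4, 58.1 and 54.1 in young, AThi and ATlo HSCs, with log2 changes of 0.29 (SE 0.24) and 0.19 (SE 0.24) per the authors' deposited tables.

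A peak 2347 bp inside Meis3 (chr7:15911667-15912350) was higher in both old groups, with group levels of 31.7 in young, 56.7 in AThi and 58.8 in ATlo HSCs. Its log2 changes were 0.84 (SE 0.26, adjusted p = 0.0197) and 0.89 (SE 0.26, adjusted p = 0.00972) per the authors' deposited tables. The remaining peaks of Meis3, in exon 9 of 13 and downstream of the gene, had log2 changes below 0 on the authors' scale in both comparisons and did not pass. The lowest in AThi HSCs was a second 3′ UTR peak, 21.8 kb from the start site and inside the helicase gene Dhx34, at -0.84 (SE 0.35, adjusted p = 0.102) per the authors' deposited table.

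Pknox1, also known as Prep1, binds PBX in place of MEIS proteins. The peak over its start site (chr17:31783014-31784609) was among the strongest of the members, with group levels of 389.9 in young, 309 in AThi and 275 in ATlo HSCs. Its log2 changes of -0.33 (SE 0.32, adjusted p = 0.589) and -0.50 (SE 0.32, adjusted p = 0.37) per the authors' deposited tables did not pass. The SE was large for so strong a peak: peaks of like level had a median SE of 0.15 in AThi HSCs, and 0.32 lay at their 99.6th percentile. The 95% interval in AThi HSCs ran from -0.96 to 0.30, which includes the -0.41 of the Meis1 start site. In intron 5 of 10, a weak peak (level 8.07) had group levels of 12.6, 3.72 and 4.77 in young, AThi and ATlo HSCs and the lowest log2 change of all members, -1.76 in AThi HSCs (SE 0.72, adjusted p = 0.101) per the authors' deposited table. In ATlo HSCs it was -1.41 (SE 0.65, adjusted p = 0.168) per the authors' deposited table, and a weak intron 1 peak had changes of 0.64 (SE 0.52) in AThi and 0.94 (SE 0.49) in ATlo HSCs.

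Pbx2, on chromosome 17, is a broadly expressed PBX gene whose loss alone is tolerated in mice. Its start-site peak (chr17:34811011-34811453) had group levels of 80.5, 78.1 and 68.4 in young, AThi and ATlo HSCs, and a peak 760 bp inside the gene had 40.1, 41.3 and 38.9. Log2 changes per the authors' deposited tables were -0.04 (SE 0.28) and -0.23 (SE 0.28) at the first and 0.04 (SE 0.27) and -0.05 (SE 0.27) at the second. None passed, and the 95% intervals allowed for changes from -0.79 to 0.58. The SE of the start-site peak in AThi HSCs was large, at the 98.9th percentile of peaks of like level, whose median SE was 0.22.

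Pbx3, on chromosome 2, had a start-site peak that did not pass and 1 intron 2 peak called higher in AThi HSCs, while its other 3 intron 2 peaks did not pass. The start-site peak (chr2:34261970-34263456) had group levels of 224, 228 and 212 in young, AThi and ATlo HSCs, with log2 changes of 0.02 (SE 0.17) and -0.08 (SE 0.17) per the authors' deposited tables. In intron 2 of 7, a peak 42.4 kb from the start site (chr2:34218795-34219621) had group levels of 13.5, 32.6 and 26.5. It rose 2.41-fold in AThi HSCs per the authors' deposited table (a log2 change of 1.27, SE 0.35, adjusted p = 0.00646), and its change of 0.97 in ATlo HSCs missed the threshold (SE 0.35, adjusted p = 0.0602). Another peak 68.9 kb from the start site had 0.91 (SE 0.33, adjusted p = 0.0581) and 0.68 (SE 0.33, adjusted p = 0.198) per the authors' deposited tables. The peaks 11.4 kb and 121.7 kb from the start site had smaller changes, of 0.30 (SE 0.21) and 0.17 (SE 0.26) in AThi and 0.13 (SE 0.21) and 0.17 (SE 0.25) in ATlo HSCs, per the authors' deposited tables. The same intron holds 3 peaks that the nearest-start rule assigns to C230014O12Rik. Of these, chr2:34121490-34121947 rose 2.73-fold in AThi HSCs per the authors' deposited table (a log2 change of 1.45, SE 0.36, adjusted p = 0.00115), and had 0.97 (SE 0.36, adjusted p = 0.0666) in ATlo HSCs. The other two did not pass: the peak starting at 34116157 had -0.59 (SE 0.69) in AThi and 0.56 (SE 0.57) in ATlo HSCs, and the one starting at 34125473 had 0.32 (SE 0.34) and 0.05 (SE 0.34), per the authors' deposited tables. Peaks of like level to the 42.4 kb peak had a median of 0.01 in AThi and 0.03 in ATlo HSCs.

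**Figure D3:**
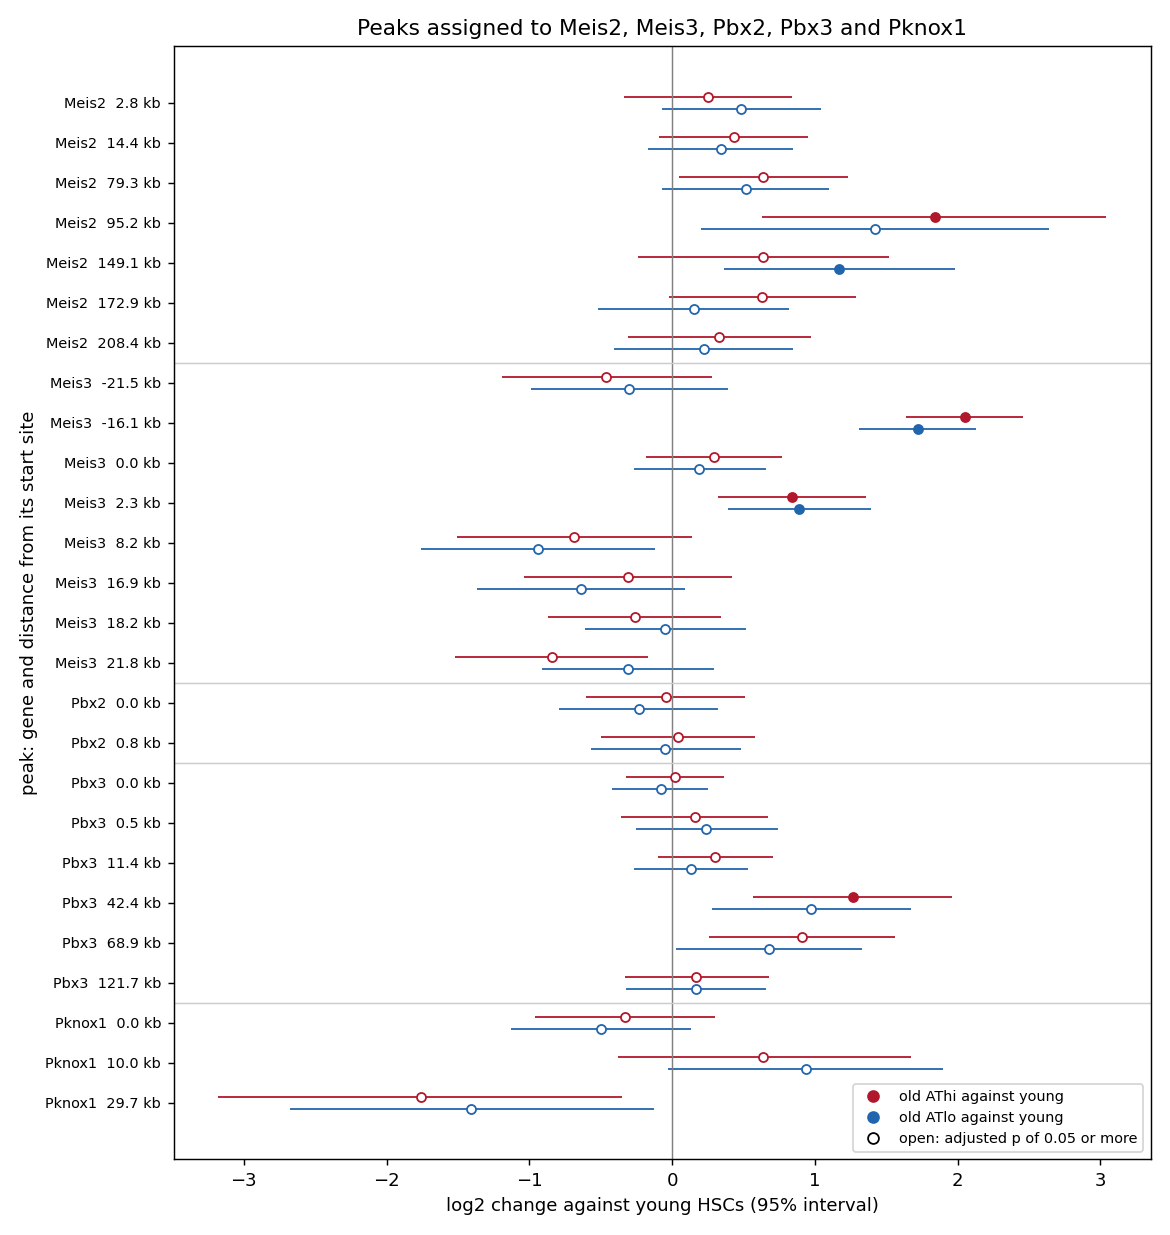
Log2 changes against young HSCs (horizontal axis, 95% intervals) of the 26 peaks assigned to Meis2, Meis3, Pbx2, Pbx3 and Pknox1, labelled with the distance from the start site in kb (negative is upstream). Red is old AThi and blue old ATlo; filled points were called. The Meis3 peak 16.1 kb upstream stands apart at 2.05 and 1.72, and every Meis2 point lies above 0.

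Between the old groups no member peak differed past the test. AThi and ATlo libraries share numbers, and the sources used here do not state whether the authors' model treated them as pairs. The authors' deposited table called 0 of 94410 peaks (0%) by DESeq2, with an adjusted p of at least 0.999998 at every peak. At an unadjusted p under 0.05 it held 1 of 48 member peaks, against 1.78% of all peaks. That peak was the Meis1 peak 1314 bp upstream of the start site, higher in AThi than in ATlo HSCs by 0.31 on the log2 scale (SE 0.16, unadjusted p = 0.0474) per the authors' deposited table. Uniform p-values would put a share of 0.05 of all peaks under that unadjusted threshold, so 1.78% was low. The lack of calls therefore does not show that the old groups were alike. The 95% interval of the difference between old groups lay within 1 log2 unit of 0 for 35 of the 48 peaks and within 0.5 for 6. At the Meis1 start site the difference was 0.03 (95% interval -0.29 to 0.35), in intron 8 of Meis1 it was -0.02 (-0.34 to 0.31), and at the Meis3 3′ UTR peak 0.33 (-0.10 to 0.76) per the authors' deposited table.

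**Figure D4:**
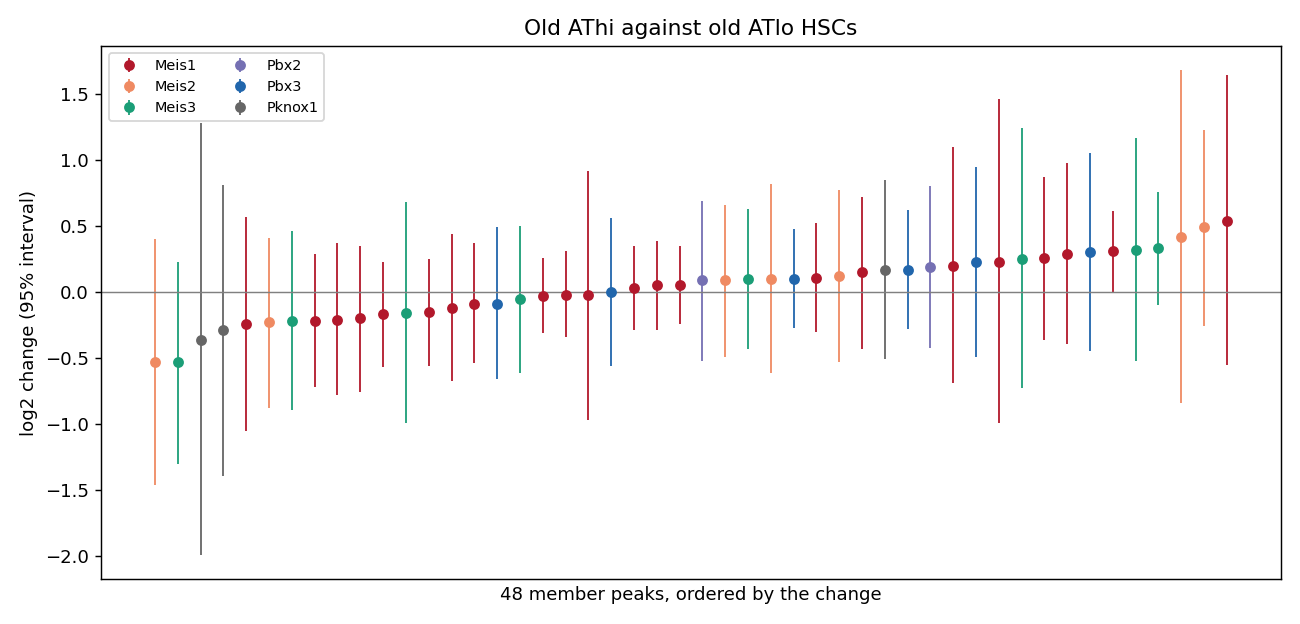
Log2 change of old AThi against old ATlo HSCs (vertical axis, 95% intervals) at the 48 member peaks, ordered by the change and coloured by gene. Changes run from -0.53 to 0.54, and 47 of the 48 intervals include 0.

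Genes that act with or beside these cofactors were described from 4 lists, as counts of genes with a called peak and as shares of their peaks. A gene with many peaks has more chances of a call, and genes had a mean of 4.54 peaks. Of all 94410 peaks, 7.42% were called higher in AThi and 6.75% in ATlo HSCs. Over all genes, 23.9% had a peak called higher and 10.6% one called lower in AThi HSCs, and 21.9% and 10.1% in ATlo HSCs. Among the 6 cofactor genes, 3 (Meis2, Meis3 and Pbx3) had a peak called higher and 1 (Meis1) a peak called lower in AThi HSCs, with 2 (Meis2 and Meis3) and 1 (Meis1) in ATlo HSCs.

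Of 16 HoxA and HoxB genes with a peak, the DNA-binding partners, 3 had a peak called higher and 0 a peak called lower in AThi HSCs, and 1 and 1 in ATlo HSCs. Of their 31 peaks, 9.68% were higher in AThi and 3.23% in ATlo HSCs, with median log2 changes of 0.20 and 0.05. The peak of Hoxb3 rose by 1.02 (SE 0.21) in AThi and 0.67 (SE 0.21) in ATlo HSCs per the authors' deposited tables. A promoter peak of Hoxa9, the partner of Meis1 in leukaemia, fell by 0.55 in ATlo HSCs (SE 0.18, adjusted p = 0.0248), with -0.28 (SE 0.18, adjusted p = 0.36) in AThi HSCs, per the authors' deposited tables. Hox genes lie close together, so a peak can be near several of them. Of 9 other TALE homeobox genes, 5 had a higher peak in AThi HSCs and 5 in ATlo HSCs, and 1 had a lower peak in AThi HSCs. Most of the genes with a higher peak were Irx genes: Irx1, Irx2, Irx3 and Irx5 each had one in both old groups. Irx1 and Irx2 lie near each other on chromosome 13, and Irx3 and Irx5 on chromosome 8, so their calls need not be independent. Of the 51 peaks of all 9 genes, 19.6% were higher in AThi and 17.6% in ATlo HSCs, with median log2 changes of 0.26 and 0.22. The promoter of Irx1, a developmental patterning gene, rose by 1.88 ± 0.28 (log2, SE) in AThi and 1.72 ± 0.27 in ATlo HSCs. A distal peak 208.5 kb from the Irx3 start site rose by 1.39 ± 0.21 and 1.09 ± 0.21, as the authors' deposited tables give.

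Of 8 genes of the MLL (KMT2A) complex and its fusion partners, which act upstream of Meis1 and the Hox genes, 2 had a higher and 1 a lower peak in AThi HSCs, and 1 and 2 in ATlo HSCs. Of their 92 peaks, 4.35% were higher in AThi and 4.35% in ATlo HSCs, both below the shares of all peaks, with median log2 changes of 0.03 and 0.04. A peak in intron 3 of Aff1 rose by 1.89 ± 0.23 and 1.62 ± 0.23, as the authors' deposited tables give. The Men1 promoter, encoding menin, fell by 0.44 in ATlo HSCs (SE 0.14, adjusted p = 0.0233), and the Kmt2a promoter did not pass in either group (-0.52, SE 0.32, in AThi and -0.68, SE 0.31, in ATlo HSCs) per the authors' deposited tables. The Kmt2a SE was large: in AThi HSCs it lay at the 99.6th percentile of peaks of like level, whose median SE was 0.15. Of 10 known targets or partners of MEIS1 and PBX, 3 had a higher and 2 a lower peak in AThi HSCs, and 2 and 2 in ATlo HSCs. Of their 111 peaks, 3.6% were higher in AThi and 1.8% in ATlo HSCs, again below the shares of all peaks, with median log2 changes of -0.08 and 0.00. Intron 1 of Epas1, which encodes an oxygen-sensitive hypoxia factor, held a peak that rose by 1.26 ± 0.21 and 1.21 ± 0.20, as the authors' deposited tables give. Lower peaks in ATlo HSCs were the Trib2 promoter (a log2 change of -0.52, SE 0.17) and intron 1 of Ccnd3, a cyclin gene (-0.58, SE 0.20), per the authors' deposited table. Peaks of like level to the Men1 and Trib2 promoters had a median of -0.27 in ATlo HSCs. Those like the Ccnd3 peak had -0.18, and those like the Hoxa9 peak -0.09. These lower calls were not tested with that median removed. The Ccnd3 SE in AThi HSCs lay at the 95.9th percentile of peaks of like level. The shares of the 4 lists are described only, without a test of a list.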

How the data were processed

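ATAC-seq peaks were compared between 5 young, 3 old AThi and 3 old ATlo HSC libraries. BWA, ChIPseeker, cutadapt, DESeq2, featureCounts, MACS2 and Trim Galore are listed, with neither version nor setting, in the submitters' processing notes. How transposase offset, duplicates and peak merging were handled: not given in the sources used here. Level means the authors' mean normalised count, a signal at or above 0. Log2 changes, SEs, Wald scores and p-values, raw and adjusted, were taken from the authors' deposited tables unchanged. The 3 tables came from 1 fit (departure at most 1.02e-14). An adjusted p was missing for 1831 peaks against young, none of them members.

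With 0 columns per library, no model was refitted, and depth per library is unknown; precision comes from the SEs (95% intervals, 1.96 SE). Group levels solve the authors' mean for the group sizes and changes. Members and lists were chosen with earlier results of these data known. The named peaks were each member's promoter peak nearest to the start site, its called peaks and its strongest peak, with up to 4 genes per list; others were added after their values were seen.

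The notes name GRCm38 and mm39; peaks were taken as mm39, since 382 of 20787 genes, and 0 members, shared a start or end with the RefSeq GRCm38.p6 table, which gave symbols for 20791 of 20810 identifiers. Python 3.11.15, pandas 2.3.3, scipy 1.17.1 and matplotlib 3.10.9 were used. The scaling and adjustment steps were tested on simulated data with the same added shift at every peak. In the real data the median change varied with level, a setting that the simulation did not cover. Alternatives covered thresholds, adjustment, scaling, distance and gene bodies.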

Additional observations from a re-analysis of the deposited data

How the results depend on the processing

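The 4 higher calls in AThi HSCs became 2 at an adjusted p under 0.01 (Pbx3 and the Meis3 3′ UTR peak), 8 with strong promoters scaled to 0 and 1 within 10 kb of a start site, and the 3 in ATlo HSCs became 9 with that scaling and 1 within 10 kb. The 2 lower calls of each old group, both at Meis1, became 1 at an adjusted p under 0.01 and 1 within 10 kb. They became 0 with a 2-fold minimum, 0 with strong promoters at 0 and 0 relative to peaks of like level, in AThi and in ATlo HSCs. The scaling moved the median of 1811 strong promoters from -0.22 in AThi and -0.31 in ATlo HSCs to 0, and all peaks with it; it called 13.3% of all peaks higher in AThi and 16.9% in ATlo HSCs, so the Meis1 calls and the count of higher calls depend on the scaling. Counts moved by at most 1.5 times with the adjustment over all peaks or over levels of at least 10, within 100 kb, and over gene bodies, a choice added after seeing the data. Over gene bodies the peaks counted changed. The Meis3 3′ UTR peak, inside Slc8a2, dropped out in both old groups, and a peak inside Pbx3 assigned to C230014O12Rik came in for AThi HSCs. The Meis3 3′ UTR and 2347 bp peaks kept their calls under every scaling and adjustment run.

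Signs that turned belonged to values that had not passed. With strong promoters at 0 the Pbx2 start-site peak went to 0.18 in AThi and 0.08 in ATlo HSCs, the other Pbx2 peak to 0.27 in ATlo and the Pbx3 start-site peak to 0.23 in ATlo HSCs. Between old groups the Meis1 start site went to -0.06, the strongest Meis1 peak to -0.04, the strongest Meis2 peak to -0.00 and the inner Pbx2 peak to -0.01. Relative to peaks of like level, the Pbx3 start site went to 0.10 in ATlo HSCs, and between old groups the Meis1 start site to -0.04 and the strongest Meis1 peak to -0.03. Leaving out libraries was not run, since the tables hold no values per library. No paired analysis was possible because the columns carry no library or pair number.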
